A study of Mus musculus with 30 samples.

Results

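Molecular chaperones bind unfolded proteins and help them reach or keep their folded state. In the cytosol this work is done by the HSP70 proteins with their J-domain and nucleotide-exchange partners, by HSP90 with its co-chaperones, and by the small heat shock proteins, and many of their genes are induced by the heat shock factor HSF1. The endoplasmic reticulum (ER) has its own set, led by the HSP70 protein BiP, the product of Hspa5, and this set is induced through the unfolded protein response by the factors XBP1 and ATF6 when secretory load rises, for example in cells that secrete cytokines or acute phase proteins. The genes described here are 44 such genes, chosen by symbol, out of 48820 gene identifiers in the table. They comprise 28 cytosolic chaperone and co-chaperone genes, 11 ER genes, 3 mitochondrial genes and the 2 heat shock factors Hsf1 and Hsf2. All 44 matched 1 identifier each and all 44 passed the filter on low counts in both tissues.

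Bulk polyadenylated RNA was sequenced from the hippocampus and the frontal cortex of wild-type adult male C57BL/6J mice, 8 to 12 weeks old, in a model related to Gulf War Illness. Every group drank water with 0.6% ethanol and 200 mg/L corticosterone (CORT) for 7 days, received the organophosphate diisopropyl fluorophosphate (DFP, 4 mg/kg) on day 8 and had further 7-day CORT courses every other week up to 5 weeks in all, so no group was free of these agents. On the last day 4 mice per time received lipopolysaccharide (LPS, the bacterial endotoxin, 0.5 mg/kg under the skin) and gave tissue 6, 12 or 24 h later, while 3 saline libraries per tissue were taken at 6 h. A further hippocampal saline library had been left out by the submitters for its quality. The saline group has no 12 h or 24 h counterpart, so those comparisons also differ in collection time. The 3 LPS comparisons of a tissue share the same saline libraries. The 30 libraries came from 16 mice, of which 14 gave both tissues. Within a tissue, p-values measure the spread between mice. Comparisons between tissues used a fit of all 30 libraries without the mouse as a block, which treats both tissues of a mouse as independent. Totals were 16826882 to 33034295 counts per library. In the hippocampus every saline library, at 26818493 to 29896427 counts, had a larger total than every LPS library, at 18910055 to 26366879. The part of this difference in the hippocampal results was not tested. Levels are given as CPM, which are counts divided by library size after TMM scaling. Fold changes are on the log2 scale, LPS over saline unless said otherwise, with adjusted p-values from edgeR's quasi-likelihood test over all genes of a comparison and a threshold of 0.05. Counts at an unadjusted p under 0.05 show how near genes came to a call. They are given without the share of all genes at that threshold and cannot show an excess. Tissue labels fitted the summed marker levels, since 8 hippocampal neuron markers together stood at 914.3 to 1032.2 CPM in hippocampal libraries and at 215.4 to 282.8 CPM in cortical ones, while 8 cortical neuron markers stood at 176.2 to 232.8 CPM in hippocampal libraries and at 512.1 to 795.5 CPM in cortical ones.

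Promoters of some members that hold a named response element are shown first, so that the elements can be read in them. Of the 44 genes, 35 had an entry among RefSeq promoters of the build GRCm38.p6, each 300 bases long from 250 before to 50 after the annotated start. The ER stress response element (ERSE, the letters CCAAT and CCACG with 9 bases of any kind between them) was searched on both strands. It was found for 4 members, all ER genes, and for 37 of 27025 genes with a promoter, a share of 0.137%. The 250 bases before the start of these 4 genes are given on the strand of the gene, with the match in capitals.
Hspa5 (chr2:34771840-34772089, plus strand): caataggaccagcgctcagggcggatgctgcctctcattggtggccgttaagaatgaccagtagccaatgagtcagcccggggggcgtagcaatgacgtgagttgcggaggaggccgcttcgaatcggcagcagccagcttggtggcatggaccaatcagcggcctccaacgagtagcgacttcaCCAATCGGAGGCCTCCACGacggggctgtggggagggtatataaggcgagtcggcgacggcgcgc
Calr (chr8:84846932-84847181, minus strand): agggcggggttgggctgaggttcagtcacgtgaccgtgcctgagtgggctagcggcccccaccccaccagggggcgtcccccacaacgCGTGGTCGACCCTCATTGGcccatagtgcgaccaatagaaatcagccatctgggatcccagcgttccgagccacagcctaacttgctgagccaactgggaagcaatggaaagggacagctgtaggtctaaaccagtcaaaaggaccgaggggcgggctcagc
Hsp90b1 (chr10:86705445-86705694, minus strand): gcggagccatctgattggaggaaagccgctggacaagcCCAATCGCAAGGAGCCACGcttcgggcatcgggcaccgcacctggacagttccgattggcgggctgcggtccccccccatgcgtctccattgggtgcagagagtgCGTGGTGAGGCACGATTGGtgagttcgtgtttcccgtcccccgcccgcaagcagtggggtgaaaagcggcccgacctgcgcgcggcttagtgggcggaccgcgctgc
Pdia6 (chr12:17266339-17266588, plus strand): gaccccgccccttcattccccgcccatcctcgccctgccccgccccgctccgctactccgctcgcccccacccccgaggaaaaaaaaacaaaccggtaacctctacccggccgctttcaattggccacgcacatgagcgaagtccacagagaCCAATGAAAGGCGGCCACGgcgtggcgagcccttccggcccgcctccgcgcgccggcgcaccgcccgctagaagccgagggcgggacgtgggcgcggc
Hsp90b1 held 2 matches and the other 3 genes held 1 each. In Calr, and at the second match of Hsp90b1, the element lay on the opposite strand.

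The second form of this element (ERSE-II, ATTGG and CCACG with 1 base between them) was found in Dnajb11 alone among the members, and in 0.0444% of genes. The heat shock element (HSE, the letters GAA, TTC and GAA, each 2 bases apart) was found in 5 members, namely Chordc1, Dnajb6, Hsph1, Hspd1 and Hspe1, and in 0.662% of genes. The letters TGACGTGG, a core bound by XBP1, were found in none of the 35 and in 0.714% of genes. For 3 genes the stretch that holds the match is given with the match in capitals.
Dnajb11 (ERSE-II, chr16:22857843-22857871, plus strand): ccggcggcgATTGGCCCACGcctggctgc
Hsph1 (HSE, chr5:149636287-149636308, minus strand): gctgcagaTTCTGGAAAGTTCt
Chordc1 (HSE, chr9:18292260-18292288, plus strand): ccgGAACGTTCGGGAAAATTCCTGAAgca
In Chordc1 3 overlapping HSE matches made up 1 run. These matches are letters in a window and not measured sites. The search allowed no mismatch in the fixed letters, so variants of an element would not be found. Of the genes shown, Hspa5 and Calr, with ERSE, and Hsph1 and Chordc1, with HSE, were not called against saline with all libraries in the results below. Hsp90b1, Pdia6 and Dnajb11 were each called in some comparison with saline. Sdf2l1, Hspa1a, Hspa1b, Hspa2, Hspb1 and Hspb8 were each called in some comparison with saline. They had a promoter entry and held no exact match to any of these elements in its 300 bases.

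Before the results, 2 libraries stood apart from the other 3 of their group in these genes. They were the hippocampal library of mouse A276 at 24 h after LPS and the cortical library of mouse A260 at 12 h after LPS. Of the 44 members, 31 were lowest of their group in hippocampus A276 and 32 in cortex A260, against 39.9% and 29% of the 11813 genes with a mean over 5 CPM. The fall against groupmates was largest in Chordc1, an HSP90-binding co-chaperone, with a log2 difference of -0.90 in hippocampus A276 and -1.07 in cortex A260. Sdf2l1 followed with -0.87 and -0.96, and Hspb1 with -0.74 and -0.89. Hsf1 had -0.62 and -0.60, and Pdia4 had -0.61 and -0.71. Hsp90ab1, Hspa12a and Hspa2 differed by less than 0.05 in both.

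The cold-inducible genes Cirbp and Rbm3, whose RNA-binding products accumulate when cells are cooled, were high in the same 2 libraries. Cirbp stood at 90.6 CPM in hippocampus A276 and at 104.5 CPM in cortex A260, against 25.7 to 46.5 CPM in the other 28 libraries. Rbm3 stood at 177.6 CPM and 204.1 CPM in these libraries, against 27.7 to 111.3 CPM in the others. Across 11813 genes the deviations of the 2 libraries from their groupmates correlated with r = 0.68, a description over genes that share libraries and are not independent. In the same mice's other tissue the differences were smaller. The hippocampus of A260 had a Cirbp log2 difference of 0.42 and a Rbm3 difference of 0.74 from its groupmates, with 15 of 44 members lowest, against 19.9% of genes. The cortex of A276 had differences of 0.25 for Cirbp and -0.14 for Rbm3, with 19 of 44 members lowest, against 27.3% of genes. Its Cirbp level of 46.1 CPM was near the top of the range of the other 28 libraries. The part of this difference in the results was not tested. Results that rest on the 2 libraries are given with and without both, an alternative chosen after seeing the data. Both were singled out by low values of these same genes. Leaving them out therefore raises most values of their own groups, and calls gained this way are no support for a rise. It also narrows the spread that the other groups of a tissue share for many of these genes. Calls gained in those groups are no support for a rise either.

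**Figure D1:**
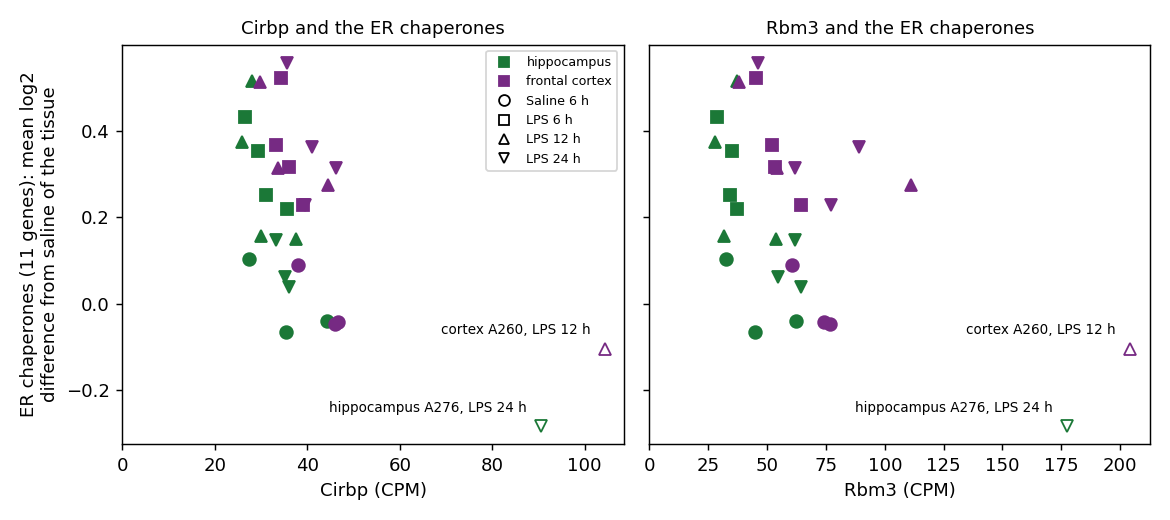
Level of Cirbp (left) and Rbm3 (right) in CPM on the horizontal axis against the mean log2 difference of the 11 ER chaperone genes from the saline libraries of the tissue on the vertical axis, 1 point per library, 30 libraries. Open symbols mark hippocampus A276 and cortex A260, which have the highest Cirbp and Rbm3 levels and the lowest ER values.

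The median of the ER chaperone transcripts stood above saline at 6 h and 12 h after LPS in both tissues. With all libraries it did so at 24 h in the cortex alone. In the cortex at 12 h no ER gene had every LPS library above every saline library. The median of the cytosolic chaperone transcripts stayed near 0 at 6 h and 12 h. At 6 h after LPS the 11 ER genes had a median log2 fold change of 0.28 in the hippocampus and 0.32 in the cortex. The 28 cytosolic genes had medians of 0.031 in the hippocampus and 0.074 in the cortex, and all genes tested had -0.0036 and 0.013. At 12 h the ER median was 0.33 in the hippocampus and 0.22 in the cortex, with cytosolic medians of 0.014 and -0.04. At 24 h the ER median was -0.016 in the hippocampus and 0.38 in the cortex, beside cytosolic medians of -0.091 and 0.012. Without A276 and A260 the ER median was 0.10 in the hippocampus at 24 h and 0.35 in the cortex at 12 h. In tissue samples such as these, fewer cells of a type and less RNA per cell cannot be told apart.

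Markers of other cell types differed between these libraries as well. Of 6 neutrophil and monocyte markers, 4 passed the filter in the hippocampus and 5 in the cortex, of which 3 rose in the hippocampus at 6 h and 5 in the cortex, and their summed level was 9.73 to 11.04 CPM in LPS 6 h hippocampi, against 1.252 to 1.887 CPM in saline hippocampi. It was 18.6 to 23.9 CPM in LPS 6 h cortices, against 1.79 to 3.67 CPM in saline cortices. These sums do not overlap between LPS and saline, like most ER genes at that time. At 24 h the sums still lay above saline in both tissues. They were 4.64 to 9.43 CPM in the hippocampus, where the ER median was -0.016, and 8.74 to 12.7 CPM in the cortex, where it was 0.38. None of 6 choroid plexus markers was called against saline by edgeR, with 3 at an unadjusted p under 0.05 in the hippocampus at 24 h and none elsewhere, but their sum varied widely within groups. It was 2393 CPM in hippocampus A261 at 12 h, the library with the highest hippocampal ER value (mean log2 difference 0.51), and 53.7 to 287 CPM in the other 3 of its group. It was 1309.7 CPM in saline hippocampus A222 and 1040.4 CPM in saline cortex A224, which have the highest saline ER values of their tissues, 0.10 and 0.09. Cortex A258 at 12 h was likewise highest in both (337.8 CPM, 0.51). In the other groups the highest sum and the highest ER value fell in different libraries. Hippocampus A240 had the highest sum at 6 h, 401.7 CPM, and the lowest ER value of its group, 0.22. Cortex A241 at 6 h had 445.0 CPM and 0.32, and A242 had 63.1 CPM and 0.52. Cortex A275 at 24 h had 473.5 CPM and 0.36, and A278 had 126.2 CPM and 0.56. The part of either marker list in the ER values was not tested.

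**Figure D2:**
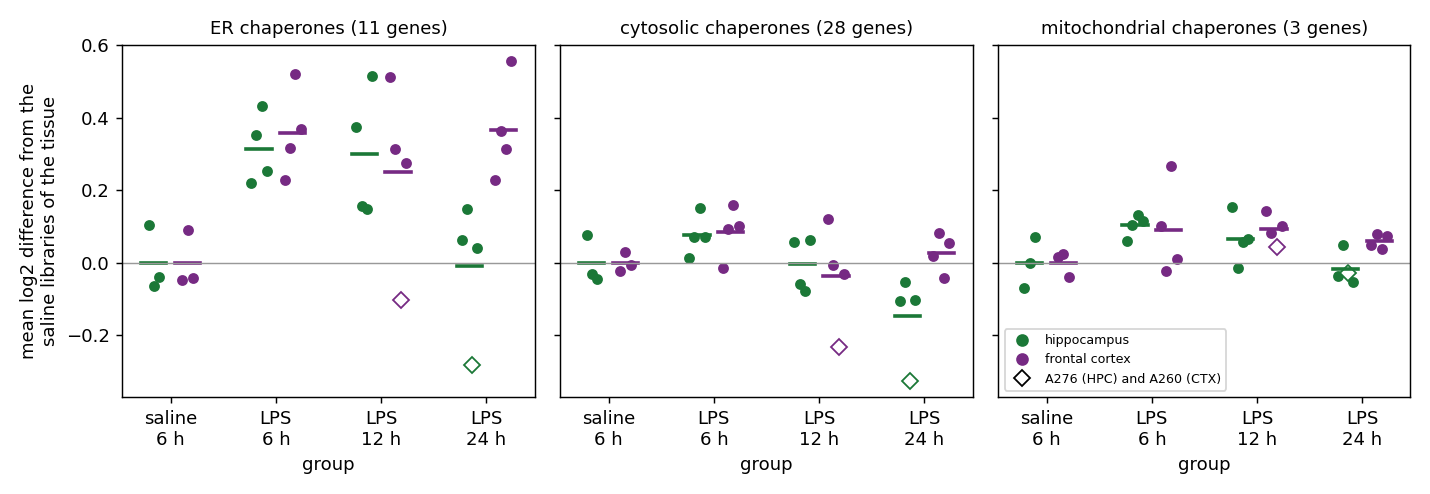
Mean log2 difference of the 11 ER, 28 cytosolic and 3 mitochondrial chaperone genes from the mean of the saline libraries of the same tissue, 1 point per library and a bar for the mean of each group, with 3 saline and 4 LPS libraries per time. ER values after LPS lie between 0.15 and 0.52 in every library at 6 h and 12 h but cortex A260, which lies at -0.10, and hippocampal values lie at -0.28 to 0.15 at 24 h.

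Few single members passed the test. In the hippocampus at 6 h 2 members rose and none fell, where 5.11% of all 17289 genes were called, 2.96% higher and 2.15% lower. These were Dnajb11 and Dnajb2. At 12 h 2 members rose and 3 fell, where 12.3% of genes were called, 6.07% higher and 6.28% lower. At 24 h none rose and 6 fell, where 13.4% of genes were called, 6.76% higher and 6.6% lower. In the cortex 3 members rose at 6 h, where 3.5% of all 17111 genes were called, 2.3% higher and 1.2% lower. None was called at 12 h in the cortex, where 7.13% were called, 4.13% higher and 3% lower, and 2 rose at 24 h, where 6.11% were called, 3.73% higher and 2.38% lower. The 0 at 12 h comes from edgeR, with 8 members at an unadjusted p under 0.05 and 1 member called by DESeq2. In the hippocampus the share of members called was thus close to that of all genes. Groups that did not overlap were common among the ER genes, which had every LPS library above every saline library for 9 of 11 in the hippocampus at 6 h, where 8.3% of all genes did, and for 8 of 11 in the cortex at 6 h, where 8.66% did. At 12 h 7 of 11 did so in the hippocampus, against 9.87% of all genes, and 0 of 11 in the cortex, against 9.43%. At 24 h 7 of 11 did so in the cortex, against 9.59% of all genes, and 1 of 11 in the hippocampus, against 10.7%.

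In cortex A260, singled out by low values of the members, 10 of the 11 ER genes were lowest of their group. Calls gained at 12 h in the cortex by leaving it out follow from that choice and are no support for a rise. Without A276 and A260 the cortex had 4 members called higher at 12 h, and all 4 were ER genes. Of all genes 5.96% were called there, and 3.52% were called higher. The 4 members were Sdf2l1 (log2 fold change 0.97 ± 0.18, adjusted p = 0.00265), Hspa5 (0.51 ± 0.14, adjusted p = 0.0335), Pdia6 (0.50 ± 0.12, adjusted p = 0.0181) and Pdia4 (0.46 ± 0.12, adjusted p = 0.0296). With all libraries none of them was called at 12 h. In cortex A260 they stood at 9.54, 191.8, 70.6 and 23.8 CPM, in the order given. Saline cortices had 9.28 to 10.5, 197.9 to 233.6, 67.8 to 81.9 and 26.8 to 31.1 CPM. Cortices A258, A259 and A261 lay above saline in each of the 4 genes. The same 4 genes were called at 24 h in the cortex when both libraries were left out, where 6.46% of genes were called and 3.7% were called higher, and with all libraries only Sdf2l1 and Pdia6 were. In the hippocampus at 12 h leaving them out gave 6 members called higher in place of 2, where 14.5% of genes were called and 7.31% were called higher, by adding Calr (0.34 ± 0.082, adjusted p = 0.0111), Pdia6, Dnajb11 and Hyou1. Neither of these 2 libraries is in the hippocampal 12 h or cortical 24 h comparison itself. They enter there through the spread, the filter and the scaling that the groups of a tissue share. Calls gained in these comparisons follow from the same choice and are no support for a rise.

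**Figure D3:**
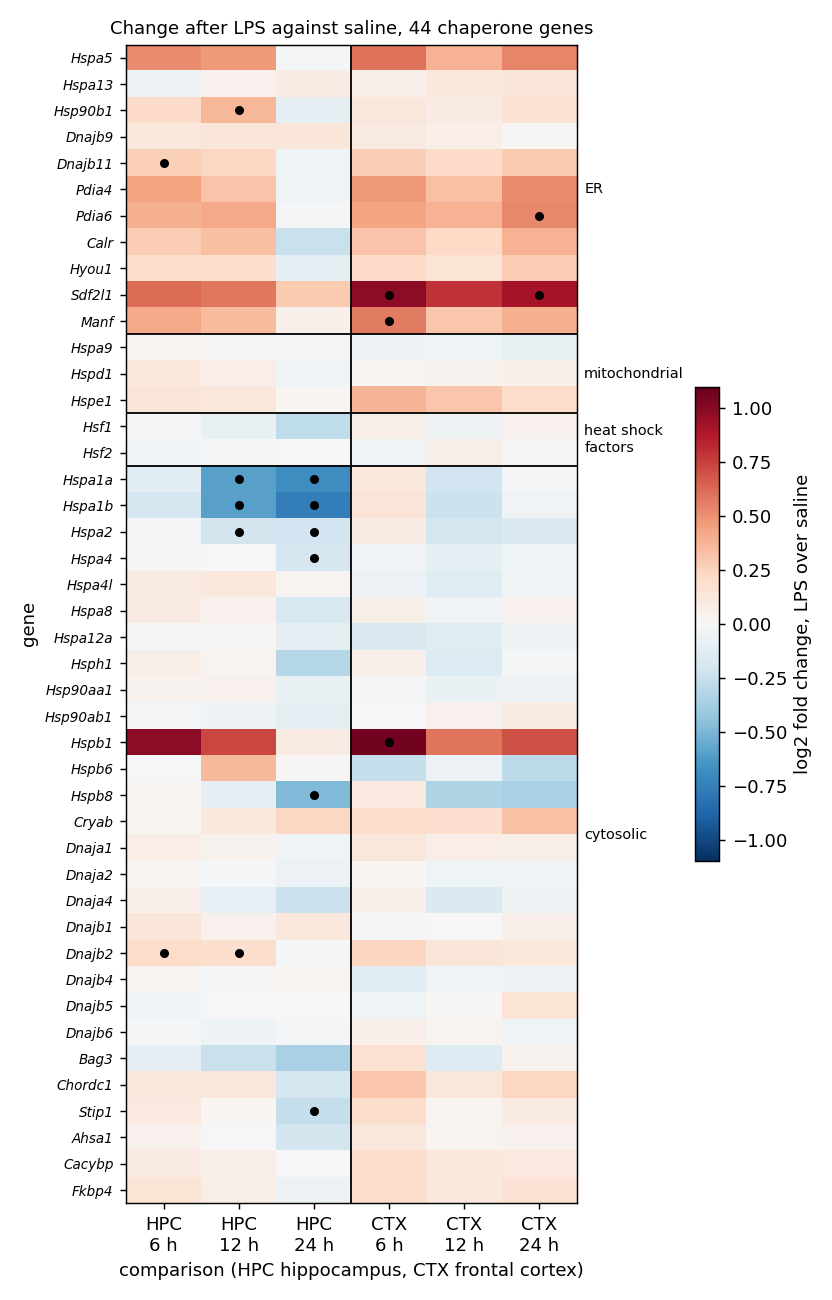
Log2 fold change of LPS over saline for each of the 44 genes (rows, by class) in the hippocampus (HPC) and frontal cortex (CTX) at 6, 12 and 24 h (columns). A black dot marks an adjusted p under 0.05, and the red ER block at the top and the blue Hspa1a and Hspa1b cells in the hippocampus at 12 h and 24 h are the main features.

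Among the ER genes, Hspa5 (ENSMUSG00000026864.13, chr2:34771970-34777547, plus strand) encodes BiP, the main HSP70 of the ER. Gene coordinates are those of GRCm38. Hspa5 had 308, 373, 381 and 344 CPM in LPS 6 h hippocampi, against 277, 227 and 229 CPM in saline hippocampi. All 4 LPS libraries lay above the 3 saline libraries, and the test gave a log2 fold change of 0.52 ± 0.17, SE, adjusted p = 0.149. In the cortex Hspa5 had 282, 299.8, 367 and 317 CPM at 6 h after LPS, against 202, 234 and 198 CPM after saline (log2 fold change of 0.59 ± 0.17, SE, adjusted p = 0.0755). The cortical groups again did not overlap. Without A276 and A260 the cortical value passed the threshold (0.58 ± 0.13, adjusted p = 0.0166). Hspa5 was low in A260, so the smaller SE follows from that choice. This gained call is no support for a rise. At 24 h Hspa5 stood at 257, 281, 180.2 and 249 CPM in the hippocampus, which spans the saline values, and at 253, 298, 291 and 381 CPM in the cortex, where every library lay above saline.

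Sdf2l1, an ER protein that works with BiP and J-domain partners, had the largest ER fold change. Sdf2l1 (ENSMUSG00000022769.7, chr16:17130138-17132383, minus strand) had 17.0, 18.3, 24.7 and 16.7 CPM in LPS 6 h cortices, against 9.28, 10.5 and 9.52 CPM in saline cortices (log2 fold change of 0.98 ± 0.24, SE, adjusted p = 0.0341). It had 17.0, 19.8, 14.6 and 22.2 CPM at 24 h after LPS in the cortex (log2 fold change of 0.92 ± 0.24, SE, adjusted p = 0.0336). All 8 of these LPS libraries lay above all 3 saline libraries. At 6 h the call held in 1 of 7 fits that left out 1 library, the one without A243, and at 24 h in 1 of 7, the one without A276. In the hippocampus Sdf2l1 had 13.8, 16.7, 18.4 and 15.6 CPM at 6 h after LPS, against 11.8, 9.35 and 10.3 CPM after saline, also with no overlap, with a log2 fold change of 0.61 ± 0.25, SE, adjusted p = 0.254.

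Manf (ENSMUSG00000032575.16, chr9:106838312-106891979, minus strand), which encodes a secreted neurotrophic factor held in the ER by BiP, rose in the cortex at 6 h. It had 35.5, 35.1, 47.4 and 40.1 CPM in LPS 6 h cortices, against 27.3, 27.6 and 25.9 CPM in saline cortices (log2 fold change of 0.57 ± 0.13, SE, adjusted p = 0.0199). In the hippocampus it had 30.7, 36.4, 39.4 and 30.5 CPM at 6 h, against 28.2, 23.9 and 24.5 CPM after saline (log2 fold change of 0.42 ± 0.14, SE, adjusted p = 0.146). LPS libraries were all above saline libraries in both tissues at this time, and the hippocampal difference did not pass the test. The cortical call held in 3 of 7 fits that left out 1 library and was lost without A242 or without any of the saline libraries A223, A224 and A226, with adjusted p-values up to 0.113. Exons of Manf overlap those of Rbm15b on the same strand, and how shared reads were counted was not stated.

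Hsp90b1 (ENSMUSG00000020048.13, chr10:86690209-86705509, minus strand) encodes GRP94, the HSP90 of the ER, and carries the 2 ERSE matches shown above. It rose in the hippocampus at 12 h, with 227, 192, 197 and 235 CPM after LPS, against 175, 161 and 160.1 CPM after saline (log2 fold change of 0.37 ± 0.08, SE, adjusted p = 0.00453). This call held in each of 7 fits that left out 1 library. In the cortex at 12 h it had 221, 185, 128 and 157 CPM, against 160.3, 166 and 162 CPM after saline, and 2 libraries, A260 and A261, lay below all saline values (log2 fold change of 0.089 ± 0.13, SE, adjusted p = 0.76). Dnajb11 (ENSMUSG00000004460.16, chr16:22857845-22879634, plus strand), a J-domain co-factor of BiP and the member with ERSE-II, rose in the hippocampus at 6 h. It had 49.3, 52.9, 53.9 and 49.7 CPM after LPS, against 43.1, 39.7 and 45.0 CPM after saline (log2 fold change of 0.27 ± 0.076, SE, adjusted p = 0.043), with no overlap. That call held in 1 of 7 fits that left out 1 library, the one without saline A226, with adjusted p-values up to 0.263.

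The ER protein disulfide isomerases Pdia4 and Pdia6 form and rearrange disulfide bonds. Pdia6 rose in the cortex at 24 h, with 95.5, 98.5, 103 and 129 CPM after LPS, against 67.8, 81.9 and 72.2 CPM after saline (log2 fold change of 0.53 ± 0.15, SE, adjusted p = 0.0405). The groups did not overlap. The call held in 1 of 7 fits that left out 1 library, the one without A274, with adjusted p-values up to 0.179. Pdia4 had a log2 fold change of 0.52 there (adjusted p = 0.0703). In the hippocampus at 12 h the values were 0.42 for Pdia6 and 0.31 for Pdia4, neither past the threshold.

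The lectin chaperone gene Calr, which encodes calreticulin, had 452, 375, 394 and 472 CPM in LPS 12 h hippocampi, against 373, 314 and 323 CPM in saline hippocampi (log2 fold change of 0.33 ± 0.11, SE, adjusted p = 0.0794). Hyou1, the large HSP70-related protein of the ER that exchanges nucleotide on BiP, showed a log2 fold change of 0.19 at 12 h in the hippocampus (adjusted p = 0.0565). Fold changes were small in Hspa13 and Dnajb9. Hspa13, a microsomal HSP70-like protein, ranged only from -0.054 to 0.13 across the 6 comparisons, and Dnajb9, a J-domain protein that acts on IRE1 and in degradation, from 0.015 to 0.13. Neither was called in any of the 6. Dnajb9 still had every LPS hippocampus above every saline one (40.0 to 42.4 CPM) at each time. It stood at 44.4 to 44.7 CPM at 6 h, 42.8 to 47.7 CPM at 12 h and 43.5 to 46.9 CPM at 24 h.

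**Figure D4:**
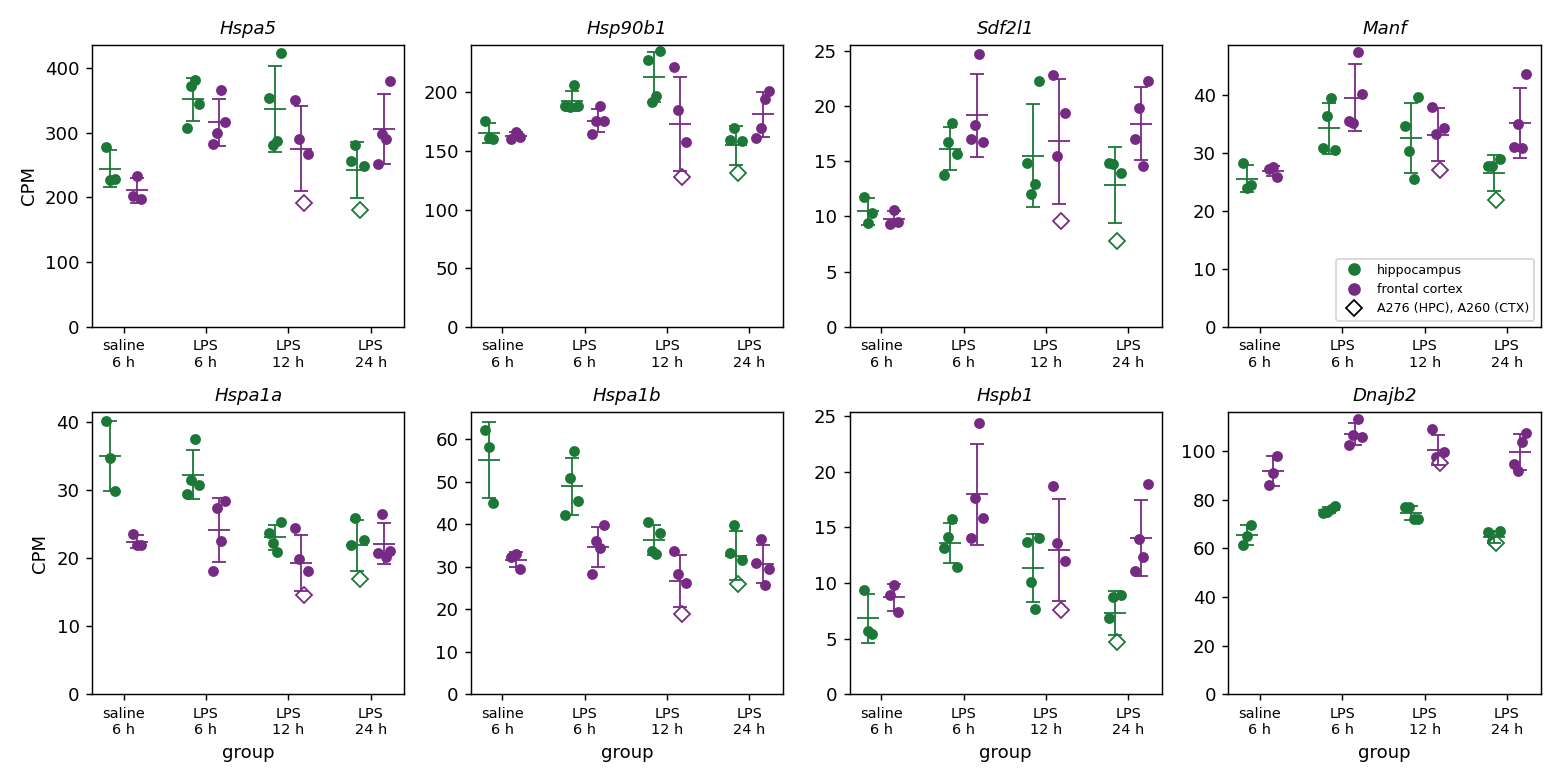
CPM of 8 members in every library, with the mean and SD of each group as a bar (3 saline and 4 LPS libraries per time), hippocampus in green and frontal cortex in purple. Open diamonds mark hippocampus A276 and cortex A260, and the axes start at 0. Hspa1a lies lower in all 8 hippocampal libraries at 12 h and 24 h after LPS than in saline, while Sdf2l1 in the cortex lies higher at 6 h and 24 h.

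The unfolded protein response factors were read from a list of 10 genes. In the hippocampus 3 of 10 rose at 6 h, 2 at 12 h and none at 24 h, where Atf6b fell. In the cortex 2 rose at each time, while Atf6 fell at 6 h and 12 h. Xbp1, the factor spliced by IRE1, had 104, 115, 117 and 110.2 CPM in LPS 6 h hippocampi, against 74.7, 66.9 and 69.2 CPM in saline hippocampi (log2 fold change of 0.66 ± 0.091, SE, adjusted p = 0.000183). In the cortex it had 129, 128, 159 and 137 CPM at 6 h after LPS, against 80.4, 81.9 and 81.2 CPM after saline (log2 fold change of 0.78 ± 0.12, SE, adjusted p = 0.00101). These gene counts do not separate spliced from unspliced Xbp1.

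Atf3, a stress-induced transcription factor, had the largest change of the list, with a log2 fold change of 1.52 in the hippocampus and 2.85 in the cortex at 6 h. Its level stayed low, at 1.42 to 3.53 CPM in LPS 6 h cortices and 0.298 to 0.405 CPM in saline cortices. Ddit3, which encodes CHOP, rose in the hippocampus at 6 h with a log2 fold change of 0.26 (adjusted p = 0.041). Eif2ak3, which encodes PERK, and Atf4 were called in none of the 6 comparisons with saline.

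Of 20 other genes for ER folding and ER-associated degradation, 1 rose in the hippocampus at 6 h, 5 at 12 h and 2 at 24 h, and none fell. In the cortex none was called at 6 h or 12 h and 1 rose at 24 h. At an unadjusted p under 0.05 there were 7 at 6 h and 5 at 12 h in the cortex. Of all genes 2.96%, 6.07% and 6.76% were called higher in the hippocampus at 6, 12 and 24 h, and 3.73% in the cortex at 24 h. The disulfide isomerase Pdia3 rose in the hippocampus at 12 h (log2 fold change of 0.30 ± 0.077, SE, adjusted p = 0.0146) and in the cortex at 24 h (log2 fold change of 0.33 ± 0.088, SE, adjusted p = 0.028). Canx, which encodes calnexin, rose in the hippocampus at 12 h (log2 fold change of 0.20 ± 0.045, SE, adjusted p = 0.00361). Edem1, which feeds misfolded glycoproteins into degradation, rose there at 24 h (log2 fold change of 0.29 ± 0.073, SE, adjusted p = 0.00922), a time at which no ER chaperone among the members was called.

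In the cytosol the clearest result was a fall of the stress-inducible HSP70 genes in the hippocampus. Hspa1a (ENSMUSG00000091971.3, chr17:34969190-34972156, minus strand) had 21.9, 26.0, 16.9 and 22.7 CPM in LPS 24 h hippocampi, against 40.2, 34.8 and 29.9 CPM in saline hippocampi (log2 fold change of -0.68 ± 0.13, SE, adjusted p = 0.00156). At 12 h it had 23.8, 22.2, 20.9 and 25.3 CPM (log2 fold change of -0.60 ± 0.13, SE, adjusted p = 0.00435). All 8 of these libraries lay below all 3 saline libraries, and both calls held in each of 7 fits that left out 1 library. At 6 h the LPS libraries had 29.4, 31.4, 37.5 and 30.7 CPM, which overlapped saline (log2 fold change of -0.12 ± 0.12, SE, adjusted p = 0.745). Without A276 and A260 the 24 h value was -0.57 ± 0.11, adjusted p = 0.00191.

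Hspa1b (ENSMUSG00000090877.3, chr17:34956436-34959238, minus strand) lies beside Hspa1a and has a coding sequence of 1926 bases, against 1923 in Hspa1a. Over 1923 aligned bases the coding sequences differed at 8 positions, and the longest identical run was 638 bases, longer than a read of 150 bases. Reads from either gene may be counted for the other or dropped, so their separate values are uncertain. Hspa1b had 33.1, 39.8, 25.9 and 31.5 CPM in LPS 24 h hippocampi, against 62.2, 58.0 and 45.0 CPM in saline hippocampi (log2 fold change of -0.76 ± 0.15, SE, adjusted p = 0.00349). Its 24 h call held in each of 7 fits that left out 1 library, and its 12 h call (-0.60, adjusted p = 0.0159) was lost without A259 or saline A222 or A224. With the counts of both genes summed, the log2 fold change was -0.59 ± 0.14 (SE, adjusted p = 0.0158) at 12 h and -0.72 ± 0.14 (adjusted p = 0.00465) at 24 h. The summed difference in the cortex was -0.23 ± 0.15 (adjusted p = 0.461) at 12 h and -0.032 ± 0.15 (adjusted p = 0.959) at 24 h.

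Hspa2, an HSP70 best known from the testis, also fell in the hippocampus. It had 71.1, 70.2, 69.6 and 69.4 CPM in LPS 24 h hippocampi, against 81.1, 79.5 and 82.3 CPM in saline hippocampi (log2 fold change of -0.21 ± 0.048, SE, adjusted p = 0.00417), and it was already lower at 12 h (log2 fold change of -0.20 ± 0.048, SE, adjusted p = 0.00625). In the cortex it had 37.0, 34.9, 37.9 and 37.9 CPM at 12 h after LPS, against 43.1, 43.7 and 39.7 CPM after saline, with no overlap, and did not pass the test (log2 fold change of -0.19 ± 0.067, SE, adjusted p = 0.111). Hspa2 was near its groupmates in A276 and A260. Hspa4, a nucleotide exchange factor of the HSP110 group, fell in the hippocampus at 24 h (log2 fold change of -0.18 ± 0.052, SE, adjusted p = 0.0203), a call that was lost without saline A222 or A224 or without A276 (-0.12, adjusted p = 0.0729).

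None of the 3 most abundant cytosolic chaperone genes was called in any of the 6 comparisons. Hspa8, the abundant HSC70, averaged 2049 ± 136 CPM in LPS 6 h hippocampi (SD, n = 4) and 1912 ± 92.2 CPM in saline hippocampi (SD, n = 3), with a log2 fold change of 0.094 ± 0.088, SE, adjusted p = 0.731. Hsp90aa1, the inducible cytosolic HSP90, averaged 1266 ± 61.2 CPM and 1227 ± 43.2 CPM in the same groups (log2 fold change of 0.039 ± 0.047, SE, adjusted p = 0.808). Hsp90ab1, its constitutive partner, had log2 fold changes of -0.11 to 0.084 over the 6 comparisons. At 24 h in the hippocampus Hspa8 averaged 1696 ± 216 CPM after LPS and 1912 ± 92.2 CPM after saline (SD, n = 4 and 3), with a log2 fold change of -0.17 ± 0.088, SE, adjusted p = 0.241, and A276 was the lowest library at 1385 CPM. Hsp90ab1 had 1639.8, 1697, 1662 and 1604 CPM in LPS 24 h hippocampi, against 1811, 1769 and 1765 CPM in saline hippocampi (log2 fold change of -0.11 ± 0.041, SE, adjusted p = 0.0877). All 4 of these LPS libraries lay below all 3 saline libraries. In the cortex at 24 h all 4 LPS libraries, at 1406 to 1449 CPM, lay above the saline libraries, at 1318 to 1398 CPM (log2 fold change of 0.084 ± 0.062, SE, adjusted p = 0.578).

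The small heat shock protein gene Hspb1 (ENSMUSG00000004951.10, chr5:135887919-135889563, plus strand), which encodes HSP27, went the other way. It had 14.0, 17.6, 24.4 and 15.9 CPM in LPS 6 h cortices, against 8.94, 9.82 and 7.44 CPM in saline cortices (log2 fold change of 1.07 ± 0.28, SE, adjusted p = 0.049). In the hippocampus it had 13.2, 14.1, 15.7 and 11.4 CPM at 6 h after LPS, against 9.37, 5.70 and 5.42 CPM after saline (log2 fold change of 0.98 ± 0.27, SE, adjusted p = 0.0594). No LPS library overlapped saline in either tissue at this time. The hippocampal value passed the threshold without A276 and A260 (0.99 ± 0.24, adjusted p = 0.0348). Hspb1 was low in A276, so the smaller SE follows from that choice, and this gained call is no support for a rise. The cortical call held in 1 of 7 fits that left out 1 library, the one without A240, with adjusted p-values up to 0.253. At 24 h Hspb1 had 6.90, 8.76, 4.69 and 8.97 CPM in the hippocampus, overlapping saline, and 11.1, 14.0, 12.3 and 18.9 CPM in the cortex, above all saline libraries.

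Other small heat shock protein genes did not follow Hspb1. Hspb8, which works with BAG3 in the removal of aggregates by autophagy, fell in the hippocampus at 24 h. It had 13.3, 13.1, 13.2 and 13.3 CPM in LPS 24 h hippocampi, against 21.7, 15.8 and 18.0 CPM in saline hippocampi (log2 fold change of -0.48 ± 0.11, SE, adjusted p = 0.00294). Its partner Bag3 had a log2 fold change of -0.36 there (adjusted p = 0.0532). Cryab, which encodes alpha-B crystallin and is rich in oligodendrocytes and astrocytes, had a log2 fold change of 0.22 at 24 h in the hippocampus (adjusted p = 0.266) and passed the threshold without A276 and A260 (0.34 ± 0.085, adjusted p = 0.00953). A276 had 35.1 CPM of Cryab, against 51.5, 47.3 and 51.7 CPM in its groupmates. The gained call follows from leaving A276 out and is no support for a rise. Summed oligodendrocyte markers stood at 3023 to 3708 CPM in LPS 24 h hippocampi and at 2941 to 3418 CPM in saline hippocampi, and their part in the value of Cryab was not tested.

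Among the J-domain genes Dnajb2 (ENSMUSG00000026203.16, chr1:75236406-75245692, plus strand), a neuronal co-chaperone that passes clients to the proteasome, rose in the hippocampus at 6 h and 12 h. It had 74.7, 74.9, 76.1 and 77.7 CPM in LPS 6 h hippocampi, against 61.6, 65.1 and 69.8 CPM in saline hippocampi (log2 fold change of 0.21 ± 0.05, SE, adjusted p = 0.0131). At 12 h it had 76.9, 77.2, 72.1 and 71.9 CPM (log2 fold change of 0.19 ± 0.05, SE, adjusted p = 0.0117). The rise was small, 1.15-fold at 6 h, and all 8 libraries lay above saline. The call was lost without A243 or saline A222 or A224 at 6 h and without saline A222 or A224 at 12 h, with adjusted p-values up to 0.11 at 6 h and 0.0855 at 12 h. In the cortex it had 103, 107, 113 and 106 CPM at 6 h after LPS, against 86.2, 91.0 and 98.2 CPM after saline (log2 fold change of 0.23 ± 0.072, SE, adjusted p = 0.09).

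Dnaja1, Dnaja2, Dnaja4, Dnajb1, Dnajb4, Dnajb5 and Dnajb6, the other cytosolic J-domain members, were called in none of the 6 comparisons. Dnajb1, the classical HSF1-induced partner of HSP70, ranged from -0.026 to 0.13. Of the HSP90 co-chaperones, Stip1, the adaptor between HSP70 and HSP90, fell in the hippocampus at 24 h (log2 fold change of -0.26 ± 0.074, SE, adjusted p = 0.0243), a call lost without A278 or saline A222 or A226 (adjusted p-values up to 0.156). Ahsa1, Fkbp4, Cacybp and Chordc1 were not called in any comparison with saline. Hsph1, the main HSP110, had 289.9, 308, 199.7 and 281 CPM in LPS 24 h hippocampi, against 363, 332 and 310.1 CPM in saline hippocampi (log2 fold change of -0.31 ± 0.12, SE, adjusted p = 0.0994). A276 was the lowest of these libraries, and without A276 and A260 the value was -0.19, adjusted p = 0.0543.

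Of 21 other cytosolic folding genes, the 8 subunit genes of the chaperonin TRiC were called in no comparison with saline. Fkbp5, an HSP90 co-chaperone and a target of the glucocorticoid receptor, fell in all 6 comparisons, with 85.1, 89.8, 78.1 and 73.8 CPM in LPS 6 h hippocampi, against 162, 139 and 117 CPM in saline hippocampi (log2 fold change of -0.78 ± 0.10, SE, adjusted p = 0.000103). Ier5, a cofactor of HSF1, rose in 5 of 6, all but the cortex at 6 h, for example in the hippocampus at 6 h (log2 fold change of 0.49 ± 0.073, SE, adjusted p = 0.000111). Serpinh1, listed here although its product is the collagen chaperone HSP47 of the ER, rose at 12 h and 24 h in both tissues, for example in the hippocampus at 12 h (log2 fold change of 1.06 ± 0.20, SE, adjusted p = 0.00265). Fkbp5 was not alone: of 15 genes known to respond to glucocorticoids, the hippocampus had 12 lower at 6 h, 15 at 12 h and 14 at 24 h, and the cortex had 7, 11 and 11. Of all genes 2.15%, 6.28% and 6.6% were called lower in the hippocampus at these times, and 1.2%, 3% and 2.38% in the cortex. All groups had received CORT, and the part of the fall of these 15 genes in the chaperone values was not tested.

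The mitochondrial members encode the matrix chaperones HSP70 (Hspa9), HSP60 (Hspd1) and HSP10 (Hspe1). None was called against saline, with edgeR adjusted p-values from 0.187 upward in the 6 comparisons. At an unadjusted p under 0.05 there were 2 values, Hspd1 in the hippocampus at 6 h (log2 fold change of 0.12 ± 0.047, SE, adjusted p = 0.206) and Hspe1 in the cortex at 6 h (log2 fold change of 0.37 ± 0.15, SE, adjusted p = 0.187). Exons of Hspd1 and Hspe1 overlap on opposite strands. Hsf1 and Hsf2, the heat shock factors themselves, had log2 fold changes of -0.28 to 0.067 and were not called. Their RNA level does not measure their activity.

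Between the LPS times, which do not use the saline libraries, hippocampal chaperones were lower at 24 h than at 6 h. In the hippocampus 15 of 44 members fell and none rose, where 9.49% of all genes were called, 4.57% higher and 4.92% lower. The 15 comprised 10 of 28 cytosolic genes, 4 of 11 ER genes and 1 of 3 mitochondrial genes. The ER median was -0.33 and the cytosolic median -0.19, against -0.00026 for all genes. Among ER genes Calr had 303, 319.8, 224.5 and 292 CPM at 24 h, against 397, 407, 445 and 394 CPM at 6 h (log2 fold change of -0.52 ± 0.11, SE, adjusted p = 0.00733). Hyou1, Hsp90b1 and Dnajb11 had log2 fold changes of -0.30, -0.31 and -0.31.

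Among cytosolic genes Stip1 had 163, 167, 129 and 156 CPM at 24 h, against 184, 205, 210.1 and 195 CPM at 6 h (log2 fold change of -0.36 ± 0.069, SE, adjusted p = 0.00223). Hspb8 was lower by a log2 fold change of -0.50 (adjusted p = 0.00253) and Dnajb2 by -0.22 (adjusted p = 0.00319). Hspb1 showed the largest difference (log2 fold change of -0.89 ± 0.25, SE, adjusted p = 0.044), a call that was lost in each of 8 fits that left out 1 library. Without A276 and A260, 11 members fell and 1, Cryab, rose, where 8.43% of genes were called. The ER median was then -0.28 and the cytosolic median -0.14. The call of Cryab follows from leaving out A276, where it was low, and is no support for a rise. Calr, Hyou1, Hsp90b1, Dnajb11, Stip1, Hspb8, Dnajb2, Hspa2, Hspa4, Hspa1a and Hsph1 were the 11, and Hspa1b, Hspb1, Ahsa1 and Hspd1 were no longer called. The clock times of injection and collection were not stated, and clock genes differed between these times as well, with 4 of 15 higher and 2 of 15 lower. All 8 microglia markers were also higher at 24 h than at 6 h, with sums of 405.8 to 441.1 CPM at 24 h, against 219.7 to 260.6 CPM at 6 h, and the part of either list in the chaperone values was not tested.

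In the cortex no member was called between 24 h and 6 h by edgeR, where 1.83% of all genes were called, with 2 members at an unadjusted p under 0.05 and 2 called by DESeq2. The ER median was 0.035 there. Between 12 h and 6 h after LPS only Hspa2 was called, in both tissues and lower at 12 h, where 2.14% of genes were called in the hippocampus and 1.23% in the cortex. Its log2 fold change was -0.17 (adjusted p = 0.0379) in the hippocampus and -0.27 (adjusted p = 0.0362) in the cortex. Each of these 2 calls held in 1 of 8 fits that left out 1 library.

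The test of the difference between tissues, an interaction in a fit of all 30 libraries, called no member at 6 h, 12 h or 24 h. Of all 17650 genes, 0%, 0.0963% and 0.125% were called at these times. At an unadjusted p under 0.05 there were 0, 1 and 10 members, and DESeq2 called none of the members at any of these times. At 24 h the ER genes had a median hippocampus minus cortex difference of -0.39 in their LPS response, and the widest ER value of the 11 was that of Sdf2l1 (-0.63 ± 0.36, adjusted p = 0.675). For Hspa1a and Hspa1b summed the difference was -0.67 ± 0.23 (SE, adjusted p = 0.433). A difference in the change between 6 h and 24 h, added after seeing the data, called no member either, where 0.125% of genes were called, and had 13 members at an unadjusted p under 0.05. Without the share of all genes at the unadjusted threshold, the counts of 10 and 13 members cannot show an excess. A difference between the tissues in the response of these genes was therefore not shown.

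In saline mice the tissues themselves differed. Hippocampus over cortex, 11 members were higher and 5 lower, where 37.1% of all genes were called, 19.9% higher and 17.2% lower. The share of members called was thus close to that of all genes. Hspa2 was the farthest apart, with 81.1, 79.5 and 82.3 CPM in saline hippocampi, against 43.1, 43.7 and 39.7 CPM in saline cortices (log2 fold change of 0.94 ± 0.057, SE, adjusted p = 8.57e-15). Hspa1b (0.81), Hspa12a (0.75), Hspa1a (0.64) and Hsp90ab1 (0.40) were also higher in the hippocampus by log2 fold change. The level of Hspa1a in LPS 24 h hippocampi, given above, overlapped that of saline cortices, at 23.5, 21.9 and 21.9 CPM.

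Lower in the hippocampus were the small heat shock protein genes Hspb6 (-0.81) and Cryab (-0.58) and the J-domain genes Dnajb2 (-0.49), Dnajb1 (-0.31) and Dnajb9 (-0.25). Summed oligodendrocyte markers were likewise lower in saline hippocampi, at 2941 to 3418 CPM, against 4639 to 6074 CPM in saline cortices, and their part was not tested. With the mouse as a block 8 members were higher and 7 lower. Of the 3 saline mice per tissue, 2 gave both tissues.

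Per kilobase of exon, the level of the members spanned more than 2 orders of magnitude in saline hippocampi. Hsp90ab1 was highest at 594 ± 8.47 CPM per kb (SD, n = 3), followed by Hspa8 at 445 ± 21.4 and Hsp90aa1 at 312 ± 10.99 CPM per kb. Calr led the ER genes at 117 ± 11.1 CPM per kb, ahead of Hspa5 at 57.8 ± 6.79 and Hsp90b1 at 41.1 ± 2.12 CPM per kb. Hspa1b and Hspa1a stood far lower, at 19.6 ± 3.20 and 11.8 ± 1.73 CPM per kb. The lowest was Hspb6 at 1.14 ± 0.291 CPM per kb, whose exons overlap 3 other genes. Among the scarcer ER genes were Sdf2l1 at 9.45 ± 1.104 and Manf at 7.24 ± 0.665 CPM per kb.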

How the data were processed

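Bulk RNA-seq of 30 mouse brain libraries was read from 1 table of whole-number counts per gene, deposited by the authors. Per the submitters' processing notes, the tools were STAR 2.6.0a, Trim Galore 0.4.1, FastQC and DESeq2, and the build was GRCm38. The sources used here name no counter, strand setting or annotation release. No column of per-sample values was left unused.

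From these counts, edgeR 4.0.16 in R 4.3.3 (limma 3.58.1) was run on the 15 libraries of each tissue: genes passing filterByExpr with a minimum count of 10 and a total of 15, TMM scaling, and a robust quasi-likelihood fit, with Benjamini-Hochberg adjustment over the 17289 hippocampal or 17111 cortical genes. Interactions and the tissue comparison used 1 fit of all 30 libraries and 17650 genes, without the mouse as a block. DESeq2 1.42.0 was an alternative. CPM used TMM factors over all 30 libraries. Pipeline steps were tested on simulated data.

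The members and gene lists were chosen with earlier results of these data known. Members called in at least 1 comparison of LPS with saline are given in full, and Hspa1a, Hspa1b, Hspa8, Hsp90aa1, Hspa5 and Hsp90b1 always. From each other list up to 4 genes a comparison could be named, called ones first by size of change. Eif2ak3, Atf4 and the chaperonin genes were named after their values were seen. No pair of libraries of a group agreed within sampling noise (chi-square per gene 2.23 to 25.0). The mouse codes in the labels pair the tissues of 14 mice. The deviations of paired libraries from their group means correlated with a median r of 0.12 (-0.13 to 0.38, 7 of 14 pairs over 0.1) across 11813 genes.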

Additional observations from a re-analysis of the deposited data

Results flagged for a closer look

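In 16 genes and 6 groups of 4 LPS libraries, 3 of 96 sets held a library far from the other 3 by Dixon's criterion, where chance alone flags about 1 in 20. Sdf2l1 stood at 7.72 CPM in the hippocampus of A276 at 24 h, against 13.9 to 14.8 CPM in the other 3 libraries. A276 is a library that stood apart in most members, and without A276 and A260 the log2 fold change of Sdf2l1 over saline was 0.47, adjusted p = 0.179. Hsp90b1 stood at 205.9 CPM in the hippocampus of A242 at 6 h, against 187.2 to 188.7 CPM in the other 3. Hspa1a stood at 26.6 CPM in the cortex of A275 at 24 h, against 20.1 to 21.1 CPM in the other 3.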

How the results depend on the processing

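Across 82 pairs of a member and a comparison no alternative turned a direction. Outside the left-out libraries, 461 of the values kept their side of the threshold, 14 passed it newly and 33 lost it. With 1 library left out, 475 kept it, 1 passed it newly and 99 lost it.

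The count of members called moved by over 1.5 times under several settings, and the cause was not tested. In the hippocampus at 6 h 2 members rose, and 11 did with no filter on low counts (1 fell), 9 with the 2 groups fitted alone, 4 with DESeq2 and 4 without A276 and A260. At 12 h 2 rose, and 5 did with scaling by library totals, 11 with no filter, 4 with the 2 groups alone and 6 without both libraries. At 24 h none rose, and 1 did with library totals, with no filter or without both libraries, and 14 fell in place of 6 with no filter. In the cortex 3 rose at 6 h, and 1 did with no filter, 6 with the 2 groups alone and 5 without both. At 12 h none rose, and 1 did with library totals or DESeq2 and 4 without both. At 24 h 2 rose, and 5 did with library totals, 0 with no filter, 6 with the 2 groups alone, 4 with DESeq2 and 4 without both.

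Between LPS times, hippocampal calls at 12 h over 6 h were 1, and 0 with library totals, 3 with no filter, 2 with DESeq2 and 2 without both. At 24 h over 6 h they were 15, and 26 with no filter. Cortical calls at 12 h over 6 h were 1, and 0 with library totals, no filter, the 2 groups alone or without both, and 2 with DESeq2. At 24 h over 6 h they were 0, and 1 with no filter, 2 with DESeq2 and 1 without both.

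Leaving out 1 library gave 0 to 2 higher at 6 h, 1 to 6 higher and 2 to 3 lower at 12 h, and 0 to 1 higher and 4 to 6 lower at 24 h in the hippocampus. In the cortex it gave 0 to 2 higher at 6 h, 0 to 4 at 12 h, and 0 to 1 higher and 0 to 1 lower at 24 h. Between LPS times it gave 0 to 1 and 10 to 15 in the hippocampus at 12 h and 24 h over 6 h, and 0 to 1 and 0 to 1 in the cortex. The saline tissue comparison gave 13 to 16, and the interactions 0. With the mouse as replicate block, 15 members were called between the saline tissues in place of 16, and 0 in each interaction. Library totals alone gave 1349 genes higher and 693 lower in the hippocampus at 12 h, against 1049 and 1085 with TMM.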

Other observations

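Of 8 target genes of the integrated stress response, the amino acid and PERK-linked branch, few were called. Trib3, a pseudokinase induced by ATF4 and CHOP, rose in the cortex at 6 h (log2 fold change of 1.11 ± 0.30, SE, adjusted p = 0.0447). Psat1, an enzyme of serine synthesis, fell in the hippocampus at 12 h (log2 fold change of -0.25 ± 0.049, SE, adjusted p = 0.000895), and Aldh1l2, a mitochondrial folate enzyme, rose there at 24 h (log2 fold change of 0.62 ± 0.17, SE, adjusted p = 0.0138). None of 6 other mitochondrial proteostasis genes was called by edgeR against saline, with 0 to 2 of them at an unadjusted p under 0.05 in each comparison.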
